A study of Mus musculus with 2 samples.

Results

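The plasminogen system was described in adult mouse ovary through 8 genes: the activators Plat and Plau, the activator receptor Plaur, the zymogen Plg, and the serpins Serpine2, Serpinb2, Serpinf2 and Serpinf1. They were chosen by name, as the rows whose gene identifier maps to those symbols, and are 8 of 43346 mouse gene rows, with 26 annotated transcripts. The tissue was ovary of female C57BL/6J littermates aged 8 weeks, with no treatment named. It gave 2 libraries of 1 group, called replicate 1 and replicate 2. The libraries were stranded, read in pairs of 76 bases, and made from polyadenylated RNA longer than 200 nucleotides after removal of ribosomal RNA. The labels call the libraries biological replicates but cite 1 donor record for both, so p-values and spread describe these 2 libraries and may be in part technical.

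Plasminogen circulates as an inactive zymogen, made mainly by the liver. The tissue-type activator (Plat) and the urokinase-type activator (Plau) cut it to plasmin, a broad protease that dissolves fibrin and helps to open basement membranes and matrix. Serpins stop the cascade by trapping the activators or plasmin itself. In the ovary, activators made by follicle cells are known for their rise as ovulation nears, when the follicle wall is broken down.

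The depth was 41124061 gene counts for replicate 1 and 34930860 for replicate 2. The libraries differed by more than sampling noise, the chi-square over 15939 genes being 75.0 times its degrees of freedom, so they were kept as 2 samples. All 6 granulosa cell markers, 5 oocyte markers and 5 theca and interstitial cell markers reached 1 TPM in both libraries. TPM is a level per transcript length, scaled to the same total in each library. Smooth muscle, stroma, endothelium, macrophage, fat, surface epithelium and oviduct markers were all at 1 TPM or more too, so the tissue held more than follicles. Of 5 neutrophil markers S100a9 was at 0 in both libraries, S100a8 and Ngp had at most 1 count, and Retnlg alone reached 1 TPM in both libraries. In such bulk tissue, fewer cells of a type and less RNA per cell cannot be told apart.

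The levels of the 2 most abundant of the 8 genes turned on which annotated transcript received the reads, so the stretches that tell those transcripts apart are shown first. They were read from the transcript sequences of GENCODE M21 on mm10, 5′ to 3′ on the minus strand. Serpine2 has a full-length transcript of 2210 bases and 9 exons. A shorter model of 696 bases and 6 exons leaves out exon 3, 228 coding bases at chr1:79816728-79816955. All 696 bases of the short model also lie in exons of the full-length one, so the junction across the missing exon is what tells it apart, and its start and end are annotated as incomplete. In the lines below, capitals mark exon 3 in the full-length transcript, with 30 bases of each neighbouring exon, and exon 4 after the junction of the short one.
Serpine2 full-length, exon 3: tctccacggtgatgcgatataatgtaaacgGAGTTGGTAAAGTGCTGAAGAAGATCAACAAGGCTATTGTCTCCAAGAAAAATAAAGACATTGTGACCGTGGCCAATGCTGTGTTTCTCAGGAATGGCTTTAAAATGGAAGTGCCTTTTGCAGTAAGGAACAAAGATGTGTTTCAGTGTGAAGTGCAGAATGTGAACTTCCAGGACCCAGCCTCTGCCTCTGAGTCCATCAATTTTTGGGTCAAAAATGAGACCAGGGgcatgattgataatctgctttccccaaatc
Serpine2 short, exon 2 to exon 4: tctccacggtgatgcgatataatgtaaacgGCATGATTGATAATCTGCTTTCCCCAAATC

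Serpinf1 has a full-length transcript of 1832 bases and 8 exons with 417 codons. A shorter model of 605 bases and 4 exons shares 500 bases with it, runs on past exon 4 (chr11:75415575-75415730) for 105 bases and ends its reading frame there, at 147 codons. Both lines start with the last 30 bases of exon 4. Capitals mark the first 30 bases of exon 5 in the full-length transcript, and, in the short one, the 5 coding bases past the exon followed by the stop codon TAG.
Serpinf1 full-length, exon 4 to exon 5: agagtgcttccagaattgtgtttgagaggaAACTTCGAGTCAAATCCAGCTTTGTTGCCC
Serpinf1 short, exon 4 onward: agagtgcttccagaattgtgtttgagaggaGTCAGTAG

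Of the 8 genes, 5 reached 1 TPM in both libraries: Serpinf1, Serpine2, Plat, Plau and Plaur. Of 21474 protein-coding genes 62% did. Replicate 1 had the higher TPM for Serpinf1, Serpine2, Plat, Serpinf2 and Plg. Plau and Plaur had nearly equal TPM in both libraries, and Serpinb2 was at the limit of detection.

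**Figure D1:**
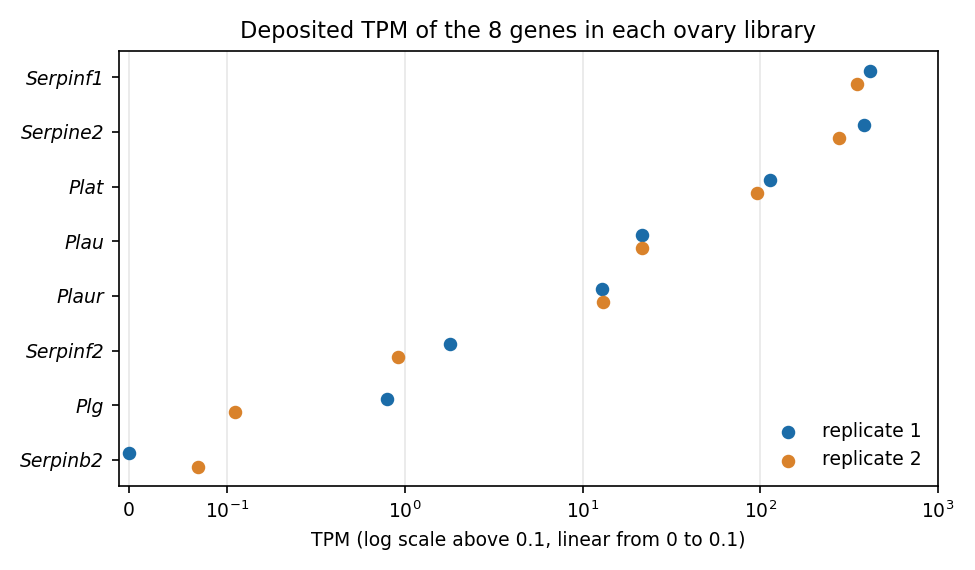
Deposited TPM of the 8 genes (rows) in replicate 1 (blue) and replicate 2 (orange), with 1 point per library; the axis is logarithmic above 0.1 and linear from 0 to 0.1. Serpinf1 and Serpine2 overlap between libraries, at 277.9 to 413.9 TPM, and the other genes form separate steps down to Serpinb2 at 0 and 0.07.

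Among the activators, Plat (ENSMUSG00000031538.5, mm10 chromosome 8, 22757727 to 22782844, plus strand) had 113.8 TPM in replicate 1 and 95.1 in replicate 2, a mean of 104 ± 13.2 TPM (SD, n = 2). These levels rested on 7744 and 5436 counts. Plat stood above 93.1% of protein-coding genes in replicate 1 and 91.3% in replicate 2. Plau (ENSMUSG00000021822.2, chromosome 14, 20836660 to 20843385, plus strand) had 21.47 TPM in replicate 1 and 21.48 in replicate 2, from 1342 and 1129 counts, a mean of 21.5 ± 0.00707 TPM (SD, n = 2). The tissue-type activator thus exceeded the urokinase-type one 5.30-fold in TPM in replicate 1 and 4.43-fold in replicate 2. Both genes have a single annotated transcript in these tables, so that ratio does not rest on a split between transcripts.

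Plaur, the membrane-anchored receptor that holds urokinase at the cell surface (ENSMUSG00000046223.9, chromosome 7, 24462484 to 24475968, plus strand), had 12.83 and 12.98 TPM in replicates 1 and 2. Its mean was 12.9 ± 0.106 TPM (SD, n = 2), from 443 and 380 counts. Plau exceeded its receptor 1.67-fold in replicate 1 and 1.65-fold in replicate 2. Plaur too has 1 annotated transcript here, of 1396 bases, while the transcript of the same identifier in M21 has 1506.

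Plg, the zymogen itself (ENSMUSG00000059481.4, chromosome 17, 12378608 to 12419385, plus strand), was near the bottom, with 0.79 TPM in replicate 1 and 0.11 in replicate 2. Those values rest on 59 counts (exact Poisson 95% interval 44.9 to 76.1) and 7 counts (2.81 to 14.4). Without molecular identifiers, such intervals and floors reflect counting error alone. Plat exceeded Plg 144-fold in TPM in replicate 1 and 864-fold in replicate 2.

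Among the inhibitors of the activators, Serpine2, or protease nexin, traps urokinase, the tissue-type activator and thrombin. Serpine2 (ENSMUSG00000026249.6, chromosome 1, 79794197 to 79861180, minus strand) had 380.4 TPM in replicate 1 and 277.9 in replicate 2, from 10196 and 7950 counts. Its mean was 329 ± 72.5 TPM (SD, n = 2). Its TPM was 3.34 times that of Plat in replicate 1 and 2.92 times in replicate 2. Serpinb2, a largely intracellular inhibitor of urokinase that macrophages can induce (ENSMUSG00000062345.6, chromosome 1, 107511423 to 107535478, plus strand), had 0 counts in replicate 1 and 3 in replicate 2. A count of 0 allows up to 3 counts, or 0.0574 TPM on its full-length transcript, so its 2 libraries cannot be told apart and no fold is given. Macrophage markers were present, with all 6 at 1 TPM or more and a summed level of 522 TPM in replicate 1 and 452 in replicate 2.

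The pair Serpinf2 and Serpinf1 lie 9030 bases apart on the minus strand of chromosome 11. Serpinf2 (ENSMUSG00000038224.8, 75431732 to 75439591) encodes antiplasmin, the fast inhibitor of plasmin in blood, made mainly by the liver. It had 1.78 TPM in replicate 1 and 0.91 in replicate 2, from 89 counts (exact Poisson 95% interval 71.5 to 109.5) and 30 counts (20.2 to 42.8). Serpinf1 (ENSMUSG00000000753.11, 75409769 to 75422701) encodes pigment epithelium-derived factor, a secreted protein with the serpin fold that restrains vessel growth and has no known protease to inhibit. It had 413.9 TPM in replicate 1 and 349.8 in replicate 2, from 6005 and 4165 counts, and its mean of 382 ± 45.3 TPM (SD, n = 2) was the highest of the 8. Serpinf1 exceeded its neighbour 233-fold in TPM in replicate 1 and 384-fold in replicate 2.

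For these neighbours and Serpine2, the 300-base windows around the start sites are shown, from 250 bases before to 50 after. This sets the 2 abundant serpins beside Serpinf2, a scarce one. They are RefSeq windows on GRCm38.p6. The Serpine2 window lies wholly inside the gene position given above, whose 5′ end on the minus strand is at 79861180. The table used here holds windows of 5 of the 8 genes, Plaur, Serpinb2, Serpine2, Serpinf1 and Serpinf2; Plat, Plau and Plg are not in it. Capitals mark matches, on either strand, to 5 motifs. The TATA box was searched as TATAAA, which lies near the start site of some genes. The CCAAT box was searched by the letters of its name. The GC box, which binds Sp family factors, was searched as GGGCGG in every window. The core of the cAMP response element was searched as TGACG on both strands. The AP-1 site, bound by Fos and Jun proteins, was searched as TGACTCA. Matches to one motif can overlap each other.
Serpine2, chr1:79858616-79858915, minus strand: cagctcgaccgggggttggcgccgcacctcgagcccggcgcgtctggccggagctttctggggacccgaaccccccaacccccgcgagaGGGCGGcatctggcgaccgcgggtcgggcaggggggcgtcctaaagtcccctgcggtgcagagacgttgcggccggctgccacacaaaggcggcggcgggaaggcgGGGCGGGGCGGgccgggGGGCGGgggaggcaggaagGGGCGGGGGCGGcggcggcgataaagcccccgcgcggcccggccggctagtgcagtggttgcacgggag
Serpinf1, chr11:75422574-75422873, minus strand: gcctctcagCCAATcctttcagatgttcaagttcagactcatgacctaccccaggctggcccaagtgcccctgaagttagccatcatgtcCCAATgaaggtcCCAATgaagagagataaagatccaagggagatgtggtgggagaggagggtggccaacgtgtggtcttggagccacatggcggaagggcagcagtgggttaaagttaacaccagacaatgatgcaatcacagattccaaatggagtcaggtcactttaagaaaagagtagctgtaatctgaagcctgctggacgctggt
Serpinf2, chr11:75439452-75439751, minus strand: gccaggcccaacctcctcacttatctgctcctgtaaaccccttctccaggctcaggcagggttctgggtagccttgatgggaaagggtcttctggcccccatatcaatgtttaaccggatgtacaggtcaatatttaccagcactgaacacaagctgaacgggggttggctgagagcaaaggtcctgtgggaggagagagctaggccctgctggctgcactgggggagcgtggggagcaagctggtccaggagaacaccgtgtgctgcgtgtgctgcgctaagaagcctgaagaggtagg
The Serpine2 window had 6 GC box matches, 77.7% GC and 41 CG pairs, against medians of 52.7% and 7 over 32851 windows. The Serpinf1 window had 3 CCAAT matches, 50.7% GC and 3 CG pairs. The Serpinf2 window, at 57.3% GC and 6 CG pairs, matched none of the 5 motifs. Serpinb2, scarcer still, did have matches in its windows, which are not printed. The window starting at 107511173 held 1 TATA box and 1 CCAAT match, and that starting at 107511260 held 1 TATA box match. The Plaur window, not printed either, held 3 GC box matches and 1 AP-1 match. Of all windows 35.7% held a GC box, 37.4% a CCAAT box, 13.6% a TATA box, 20.8% the cAMP element core and 5.2% the AP-1 site. A match is a description of letters and does not show binding.

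In order of mean TPM the genes ran Serpinf1, Serpine2, Plat, Plau, Plaur, Serpinf2, Plg and Serpinb2. Each gene lay above the next in both libraries with no overlap, except Serpinf1 and Serpine2, whose ranges overlapped. Plg and Serpinb2 were not separate by counting error in replicate 2, at 7 counts (2.81 to 14.4) and 3 counts (0.619 to 8.77). That order held for the deposited TPM, which divides the reads of each transcript by the effective length of that transcript. By the posterior mean TPM, also deposited, the last step did not hold. Plg was at 0.79 in replicate 1 and 0.13 in replicate 2, and Serpinb2 at 0.38 and 0.47, so their ranges overlapped.

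The short models carried most of the TPM of both abundant serpins. In Serpine2 the 696-base transcript had 69.6% of the TPM in replicate 1 and 53.2% in replicate 2, and the 2210-base full-length transcript 28.4% and 43.4%. By expected counts the order was the reverse, with 35.9% and 22.4% of the reads on the short model and 62.0% and 74.8% on the full-length one. In Serpinf1 the 605-base transcript had 82.3% and 83.2% of the TPM, and 63.3% and 68.7% of the counts. The full-length Serpinf1 transcript had 5.92% and 3.24% of the TPM. A 976-base transcript annotated for nonsense-mediated decay had 9.45% and 8.69%.

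**Figure D2:**
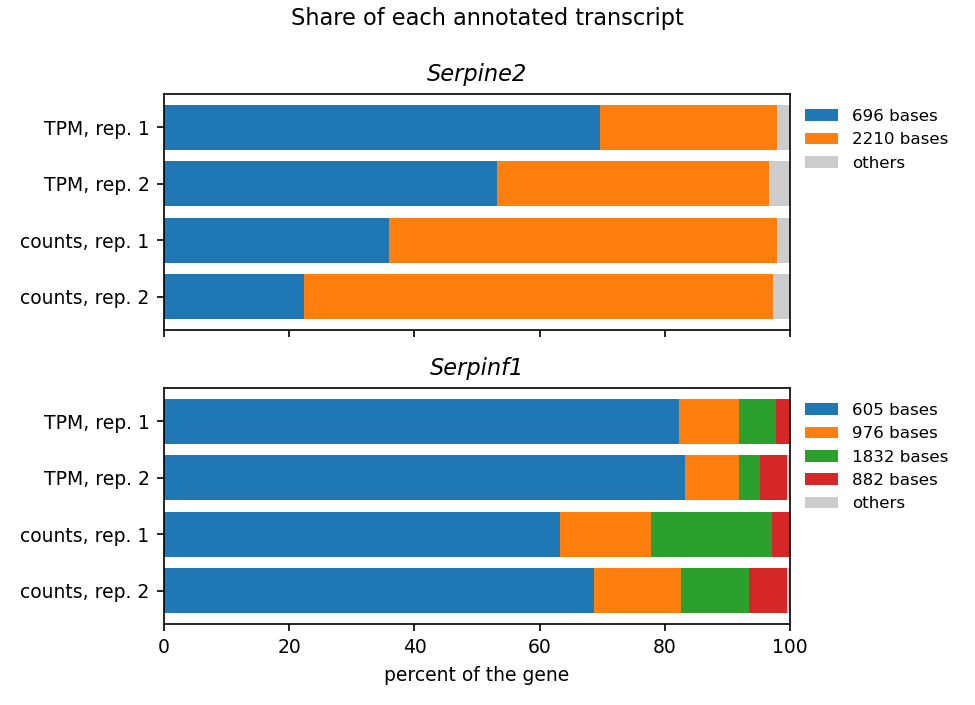
Percent of the gene carried by each annotated transcript of Serpine2 (top) and Serpinf1 (bottom), by TPM and by expected counts, in replicates 1 and 2; colours are transcripts, named by length. The 696-base Serpine2 model holds 69.6% and 53.2% of the TPM but 35.9% and 22.4% of the counts, while the 605-base Serpinf1 model leads on both scales.

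The shares of Serpine2 moved by up to 16.4 percentage points between the libraries, and those of Serpinf1 by up to 2.68. Among 9449 genes with several transcripts and 100 or more counts on average, 22.3% had a move as large as that of Serpine2, and the median was 7.47 points. A share moved by 10 points or more in 40.3% of them. The most abundant transcript was the same in both libraries for Serpine2 and for Serpinf1, and it differed between libraries in 14.3% of those genes. In both genes it was not the transcript with the longest coding sequence, as in 51.4% of 9246 genes. It was shorter than 0.5 times the transcript with the longest coding sequence, which held for 19.6% of those genes. Effective length depends on fragment size, and the implied mean fragment was 228 bases in replicate 1 and 206 in replicate 2. The part of fragment size in these shares was not tested. Serpinf2, with 89 and 30 counts, averaged too few to be among the 9449 genes. Its 2192-base transcript had 45.1% of the TPM in replicate 1 and 0% in replicate 2. Its 2179-base transcript had 32.55% and 54.49%, and an 803-base transcript annotated for nonsense-mediated decay had 0% and 45.51%.

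Single transcripts of Serpine2 went both ways in counts. The short model had 3665 counts in replicate 1 and 1783 in replicate 2, a log2 ratio of -0.74 (95% interval -0.82 to -0.66). The full-length transcript had 6322 and 5945 counts, a log2 ratio of 0.21 (0.16 to 0.26). A 1129-base retained-intron transcript, minor at 0.88% and 2.73% of the TPM, had 89 and 172 counts, a log2 ratio of 1.24 (0.87 to 1.64). In Serpinf1 the full-length transcript had 1162 and 453 counts, a log2 ratio of -1.06 (-1.22 to -0.90), against -0.11 (-0.18 to -0.04) for the short model. The 882-base transcript, annotated for nonsense-mediated decay, went the other way, with 171 and 251 counts and a log2 ratio of 0.85 (0.57 to 1.14). The deposited TPM intervals have no stated level. Those of the 696-base Serpine2 model were 249.98 to 271 in replicate 1 and 135 to 156 in replicate 2. Those of the 882-base Serpinf1 transcript overlapped, at 5.47 to 12.6 in replicate 1 and 11.3 to 19.1 in replicate 2. The deposited intervals treat the annotated models as given. The 95% intervals of the log2 ratios are binomial and treat expected counts as observed reads. Error in assigning reads between models that share bases is left out of them.

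With the reads of each gene divided by the effective length of its transcript with the longest coding sequence, called here the full-length level, the order changed. Serpine2 stood at 174 in replicate 1 and 161 in replicate 2 on the TPM scale, a mean of 168 ± 8.98 (SD, n = 2). Serpinf1 stood at 127 and 104, a mean of 115 ± 15.9. Plat, with 1 transcript, stayed at 113.8 and 95.1. On this scale Serpine2 lay above Serpinf1 in both libraries, Serpinf1 and Plat overlapped, and Serpinf2 and Plg overlapped. The deposited TPM was 2.19 and 1.72 times the full-length level for Serpine2, and 3.27 and 3.36 times for Serpinf1. The ratio of Serpine2 to Plat was 1.53 and 1.70, and that of Serpinf1 to Plat 1.11 and 1.10. Serpinf1 still exceeded Serpinf2, 82.6-fold and 169.6-fold. Both scales assume a transcript model, and which models these ovaries contained was not tested.

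**Figure D3:**
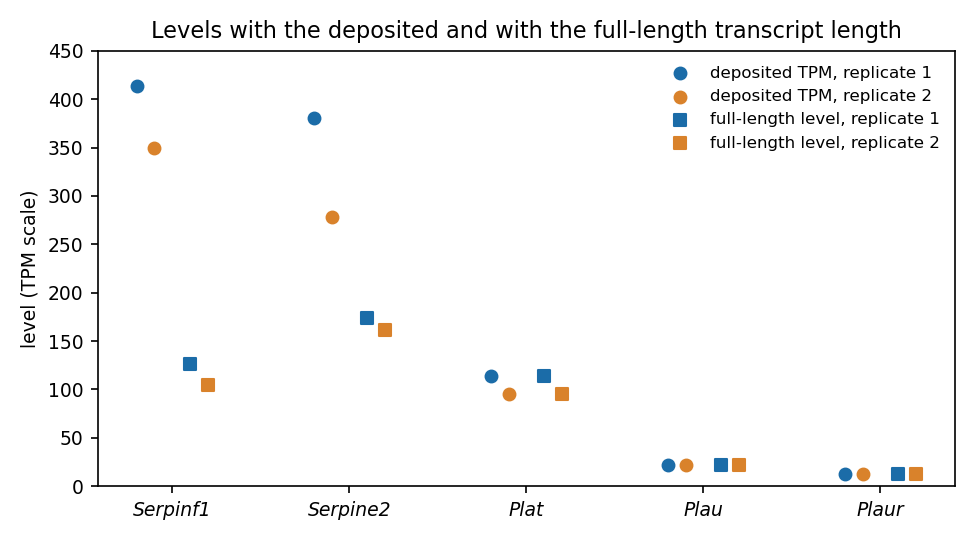
Level of the 5 most abundant genes on the TPM scale, as deposited (circles) and as the full-length level (squares), in replicate 1 (blue) and replicate 2 (orange). Serpinf1 moves from 413.9 and 349.8 to 127 and 104, and Serpine2 from 380.4 and 277.9 to 174 and 161. Plat, Plau and Plaur have 1 transcript each, so they stay in place by construction.

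The libraries were then compared with each other, by the log2 ratio of scaled counts of replicate 2 over replicate 1. With 1 library on each side there is no replicate check on this difference. An exact binomial test with Benjamini-Hochberg adjustment over 15939 genes compares the reads of these 2 libraries only, and 56.1% of all genes passed it. Of the 7 genes with enough counts, 5 were lower in replicate 2 past that test and none was higher, where 27% of all genes were lower. Their median log2 ratio was -0.21, against -0.01 over all genes tested. Markers of several cell types also differed between the libraries by that test, where 29.1% of all genes were higher and 27% lower. Lower in replicate 2 were 4 of 5 theca and interstitial markers, with 1 higher (median log2 ratio -0.29), and 3 of 5 oocyte markers (-0.24). Higher were 5 of 5 surface epithelium markers (0.32) and 4 of 4 fat cell markers (0.32), and 3 of 6 granulosa markers were higher and 3 lower (0.02). Endothelium markers were lower in 3 of 5 (-0.06) and macrophage markers in 3 of 6 (-0.07), with 0 higher in either list. Of 5 stroma markers 2 were higher and 3 lower (-0.18). Of 3 oviduct markers 1 was higher and 2 lower (-0.20), and of 4 smooth muscle markers 2 were higher and 1 lower (0.05). None of these lists had a marker past 2-fold, and their part in the differences of the 7 genes was not tested. Past 2-fold were 2 of the 7, Plg and Serpinf2, both lower in replicate 2, where 3.99% of all genes were past 2-fold and 1.71% in that direction. None of the 7 was higher past 2-fold, as were 2.28% of all genes.

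**Figure D4:**
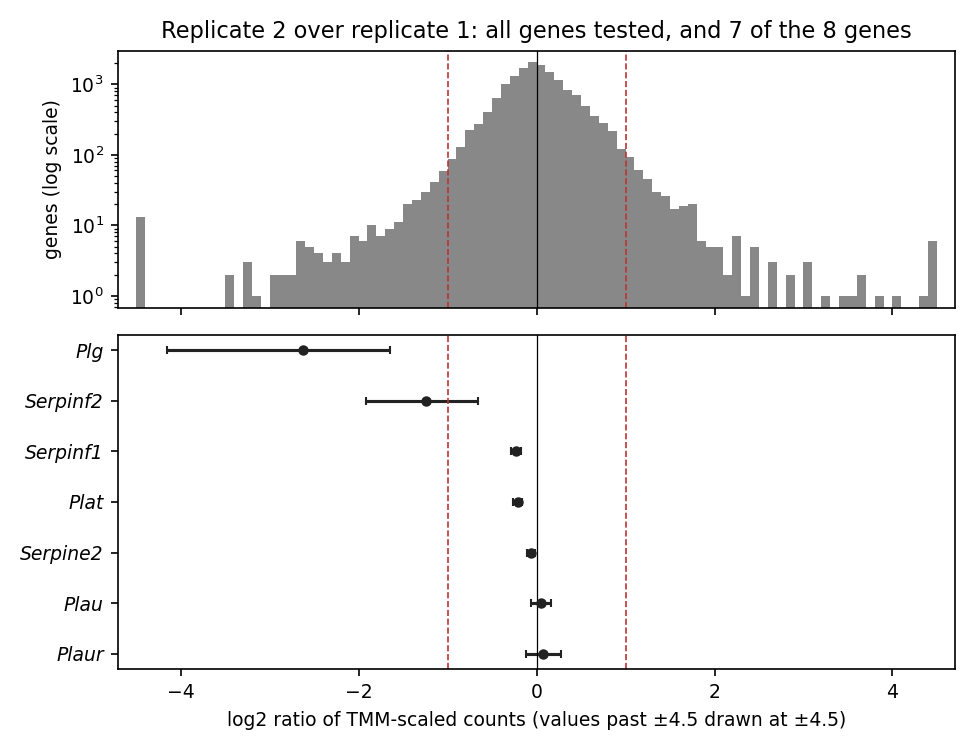
Log2 ratio of replicate 2 over replicate 1: a histogram of 15939 genes (top, log count axis) and the 7 tested genes with exact binomial 95% intervals for counting error (bottom); dashed lines mark 2-fold. Plg (-2.63) and Serpinf2 (-1.24) lie past the left dashed line and the other 5 lie between -0.23 and 0.08.

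Plg differed by -2.63 (95% interval -4.15 to -1.64), with 59 counts in replicate 1 and 7 in replicate 2, and an adjusted p of 1.15e-08 in the exact binomial test. A ratio as low or lower was seen in 31 of the 15939 genes tested, or 0.194%, Plg among them. Of 1566 genes with a mean count from 20 to 50, such as Plg, 8.75% were lower past 2-fold. Serpinf2 differed by -1.24 (-1.92 to -0.66; exact binomial adjusted p 3.72e-05), with 89 and 30 counts. Its ratio or a lower one was seen in 154 genes, or 0.966%, Serpinf2 among them. Of 1325 genes with a mean count from 50 to 100, 4.15% were lower past 2-fold.

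Markers of liver, where both genes are mainly made, moved alongside. All 7 had the lower TPM in replicate 2, and their summed level was 57.7 TPM in replicate 1 and 16.6 in replicate 2. All 5 of 7 with enough counts were lower in replicate 2 past the exact binomial test, where 27% of all genes were lower. Of these 5, 3 were lower past 2-fold, where 1.71% of all genes were. Their median log2 ratio over the 5 was -1.77, with a range from -2.58 to -0.71. Albumin (Alb) had 1256 and 299 counts, the apolipoprotein gene Apoa2 had 160 and 21, and the fibrinogen chain gene Fgb had 57 and 11. None of the 7 markers was at 0. Alb, the highest of them, had 23.4 and 6.62 TPM. Their part in the Plg and Serpinf2 differences was not tested.

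**Figure D5:**
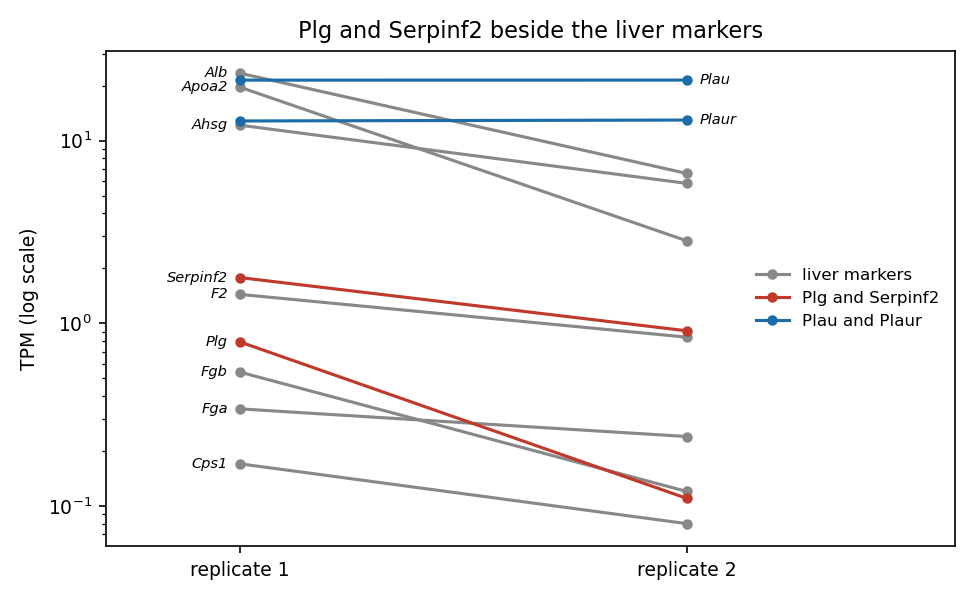
TPM (log axis) in replicate 1 and replicate 2 of the 7 liver markers (grey), of Plg and Serpinf2 (red), and of Plau and Plaur (blue); lines join the 2 libraries. Every grey and red line slopes down, Plg from 0.79 to 0.11 and Serpinf2 from 1.78 to 0.91, while Plau stays at 21.47 and 21.48.

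The other genes differed little. Plat differed by -0.21 (95% interval -0.26 to -0.16; exact binomial adjusted p 6.76e-16) and Serpinf1 by -0.23 (-0.29 to -0.17; adjusted p 1.9e-14). Both passed on the size of their counts, with folds of 1.16 and 1.17. Serpine2 differed by -0.06 (-0.10 to -0.02; adjusted p 0.0117), while its log2(TPM + 1) differed by -0.45. Plau, at 0.05 (-0.07 to 0.17), and Plaur, at 0.08 (-0.12 to 0.28), did not pass, with adjusted p of 0.491 and 0.536 in the exact binomial test. Directions are relative to the other genes. Scaling to the spike-in total moves the scale by -0.43, so that the median over all genes was -0.44, and Plau and Plaur turned to -0.38 and -0.36. On total gene count Plau was at -0.01.

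Other genes of the pathway were counted by list. Of 11 further serpins and inhibitors, 8 reached 1 TPM in both libraries, and 3 were higher and 4 lower in replicate 2 of 9 tested by the exact binomial test, where 29.1% of all genes were higher and 27% lower. Serpinh1, a collagen chaperone with a serpin fold, led at 897 ± 31.7 TPM (SD, n = 2), before the complement and contact inhibitor Serping1 at 309 ± 35.5 and Serpinb6a, which has close paralogs, at 81.2 ± 3.32. A2m, a broad protease trap, is named because its value stood out once seen: it had 60 counts in replicate 1 and 1200 in replicate 2, a log2 ratio of 4.596.

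Of 12 surface receptors and clearance genes all were at 1 TPM or more in both libraries, as were 62% of protein-coding genes. By the exact binomial test 6 were higher and 4 lower in replicate 2, where 29.1% of all genes were higher and 27% lower. Eno1, an enolase that can bind plasminogen and has near-identical copies, stood at 407.7 ± 100.3 TPM (SD, n = 2). Anxa2, which binds plasminogen and the tissue-type activator, stood at 334 ± 21.99 TPM, and Lrp1, which clears activators bound to serpins, at 283 ± 12.2. Of 12 substrates and targets 6 reached 1 TPM in both libraries, and 3 were higher and 4 lower of 10 tested, beside those same shares of 29.1% and 27%. Fibronectin (Fn1) led at 278 ± 14.4 TPM, before the matrix protease gene Mmp2 at 204.6 ± 15.3 and Tgfb1 at 48.7 ± 4.48. Of 5 measured activating and contact proteases St14, a membrane serine protease, was highest at 28.6 ± 0.820 TPM, before the protease gene Hgfac at 11.5 ± 1.66. F12, a contact protease made by the liver, had 38 and 9 counts. Of the 3 tested by the exact binomial test, Hgfac (log2 ratio 0.35) and St14 (0.10) were higher in replicate 2 and F12 (-1.68) was lower. The shares over all genes were again 29.1% and 27%.

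Genes induced as ovulation nears, the state in which activators are known to rise, were in part higher in replicate 2. Of 9 tested, 5 were higher and none lower past the exact binomial test, where 29.1% of all genes were higher. The other 4, Ptgs2, Tnfaip6, Ereg and Btc, did not pass, with log2 ratios of -0.35, -0.52, -0.64 and -0.86, and Has2 had 18 and 10 counts, too few to test. The matrix protease gene Adamts1 had 41.03 and 51.9 TPM in replicates 1 and 2. Pgr, the progesterone receptor gene, had 23.96 and 68.0 TPM. Edn2, an endothelin gene switched on in follicles at ovulation, had 5.95 and 30.6 TPM, a log2 ratio of 2.42. Plat was lower in that library, with a log2 ratio of -0.21, and Plau and Plaur did not pass the test.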

How the data were processed

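The authors deposited, for each of the 2 ovary libraries, a gene and a transcript table on mm10 with GENCODE M4, per the accompanying notes. Aligner and quantifier: not given in the sources used here. Deposited values are the authors' expected counts (estimated read pairs), TPM (divided by effective length), FPKM, and each transcript's percent of the TPM of its gene. Symbols came from GENCODE M21 by identifier without version (42462 of 43346 matched); gene positions are those of M21. Spike-ins (0.764% and 0.986% of counts) and rows naming no gene (0 counts) were left out. Junction and contig tables on mm9 were not used here.

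Expected counts were rounded. Genes averaging 20 or more counts were scaled by TMM (edgeR 4.0.16, R 4.3.3), with log2 ratios at a prior count of 1. With 1 library a side edgeR's quasi-likelihood test has no residual degrees of freedom, so a two-sided exact binomial test was used, at an adjusted p of 0.05. Intervals are 95% exact binomial (Clopper-Pearson) or exact Poisson. The gene-level binomial test was tried on simulated counts with Poisson noise alone, whereas these libraries differed by more than that. DESeq2 1.42.0 gave alternative size factors. Other steps used Python 3.11.15, scipy 1.17.1 and statsmodels 0.14.6. All 8 genes are named, with the 3 highest of each further list; 1 other gene of the rule is not reported here. No genes of like pattern were sought, since 1 group gives none. The full-length level was chosen after seeing the data. Members and lists were chosen with earlier results of these data known.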

Additional observations from a re-analysis of the deposited data

How the results depend on the processing

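No paired analysis was possible because the 2 libraries form 1 group. Depth limits Serpinb2, Plg and Serpinf2. Under total gene count, DESeq2 size factors, posterior mean counts and no filter, each of the 7 genes kept its side of the test, and its direction except Plau on total gene count (-0.01). Scaled to the spike-in total, Plau turned to -0.38 and Plaur to -0.36, both then past the test. With the trend with GC content removed Serpine2, at -0.02, no longer passed; the cause was not tested. At 100 or more counts on average, Plg and Serpinf2 are not tested, so 0 of the genes were past 2-fold and 3 were lower past the test. On log2(TPM + 1), which understates low genes, 0 were past 2-fold, with Plg at -0.69 and Serpinf2 at -0.54.

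Over all genes, those past 2-fold numbered 636 (364 higher and 272 lower in replicate 2). They numbered 1207 on the spike-in total (123 and 1084), 3346 with no filter (1861 and 1485), 298 at an average of 100 or more counts (213 and 85), and 410 on log2(TPM + 1) (167 lower). On the spike-in total 1142 were higher and 11431 lower past the exact binomial test, against 4646 and 4301. The number of the 8 genes at 1 TPM or more in both libraries was 5, and was from 5 to 6 without either replicate, at 0.5 TPM, at 2 TPM or by posterior mean TPM.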
